A study of Cervus nippon with 40 samples.

Results

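The miR-200 family was followed by name through small RNA libraries of 10 organs of male Shuangyang Sika Deer. The members were all names miR-200a, miR-200b, miR-200c, miR-141 and miR-429, with any arm suffix, that the tables list. Of these 5 names 2 were listed, bta-miR-200b and bta-miR-429 (names of the cattle miRNAs in miRBase), out of 500 names in all and 337 names of known miRNAs. The other 3 names had no row in the tables used here and were not analysed. No file in use held the mature sequences, so the members are given by name.

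The libraries came from adrenal, antler, brain, heart, kidney, liver, lung, skeletal muscle, spleen and testes of deer at 4 stages. Juvenile deer were 1 year old, adolescence deer 3 years, adult deer 5 years and aged deer 10 years. Each of the 40 libraries held pooled RNA of 3 deer, and every organ had 1 library at each stage. The organs of a stage came from the same 3 deer, so a stage difference cannot be told apart from a difference between groups of deer. The spread between deer of 1 stage was not measured, and the spread given here is that between the 4 stages of an organ.

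The miR-200 family is best known from epithelia, the cell sheets that line tubules, airways and ducts. It represses the transcription factors ZEB1 and ZEB2, which in turn repress E-cadherin and other genes of cell adhesion, and ZEB proteins repress the miR-200 genes themselves. In mammals miR-200b, miR-200a and miR-429 are made from a shared primary transcript, and miR-200c and miR-141 from another. Kidney, lung and liver contain tubular, airway and bile duct epithelium, while muscle, heart, brain and antler consist mainly of other cells. The growth state and the part of the antler sampled are not given. In bulk tissue, fewer cells of a type and less of an RNA per cell cannot be told apart.

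The tables hold RPM, the reads of a miRNA per 1000000 miRNA reads of its library, and leave out a miRNA that had no read. The value of 1 read was recovered from the smallest steps of each table. The libraries held 41866 to 7759033 miRNA reads (median 744715), with the fewest in testes and the most in muscle. Most known organ miRNAs were where their labels place them. The highest mean of miR-1 and miR-206 was in muscle, and that of miR-208a, miR-208b and miR-499 (5 reads) in heart. Brain had the highest mean of miR-124a, miR-128 and miR-153, and kidney and liver that of miR-192. Spleen had that of miR-150, miR-142-5p and miR-451 (8 reads). However, the muscle miRNA miR-133a had a higher share of the reads in heart (mean 137578 RPM) than in skeletal muscle (19819 RPM). In the same totals miR-1 took 910959 to 928505 RPM in skeletal muscle and 151290 to 814910 in heart. The part of miR-1 in this difference was not tested. The endothelial miR-126-3p had its highest mean in kidney (34.1 RPM). The liver miRNA miR-122 and the myeloid miR-223 had no row in the tables used here.

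The family was scarce. It had 146 reads over the 40 libraries, 144 of miR-200b and 2 of miR-429, or 2.78 per 1000000 miRNA reads. Of the miR-200b reads kidney gave 102, which was 70.8% (95% exact binomial interval 62.7% to 78.1%). Lung gave 22 (15.3%), liver 18 (12.5%) and heart 2 (1.39%). The remaining 6 organs gave none. All intervals here cover the sampling of reads alone.

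In kidney miR-200b was at 24.3 RPM in the juvenile (8 reads), 43.6 in the adolescence (16 reads), 48.6 in the adult (16 reads) and 72.4 in the aged library (62 reads), with a mean of 47.2 ± 19.8 RPM (SD, n = 4 stages). Every kidney value lay above every value of the other organs, and the lowest kidney value was 1.18 times the highest value elsewhere. In testes, however, 3 reads would equal 5.60 to 71.7 RPM in a single library, and in the aged testes, the smallest library, the summed kidney rate would have given 2.27 reads. By level miR-200b was the 74th to 94th of the 149 to 176 known miRNAs that a kidney library listed. This places it in the middle of the kidney list.

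In lung the values were 7.65 RPM (8 reads) in the juvenile, 3.08 (2 reads) in the adolescence, 5.21 (4 reads) in the adult and 7.68 (8 reads) in the aged library, with a mean of 5.90 ± 2.21 RPM (SD, n = 4 stages). In liver they were 2.28 RPM (1 read), 3.03 (1 read), 20.5 (8 reads) and 11.4 (8 reads) in the same order of stages, with a mean of 9.32 ± 8.54 RPM (SD, n = 4 stages). The adult and aged liver values were above the younger ones, which rest on 1 read each. The 95% exact Poisson intervals of the younger livers were 0.0578 to 12.7 and 0.0767 to 16.9 RPM. They overlapped those of the adult (8.85 to 40.4 RPM) and the aged liver (4.94 to 22.6 RPM). The ranges of lung and liver overlapped.

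Heart listed miR-200b in the aged library alone, at 2.21 RPM (2 reads, 95% exact Poisson interval 0.268 to 7.98 RPM). The juvenile, adolescence and adult hearts had none. Thus 12 of 12 libraries of kidney, lung and liver listed the miRNA, at 2.28 to 72.4 RPM (median 9.56), against 1 of 16 libraries of muscle, heart, brain and antler. The lowest liver value, 2.28 RPM on 1 read, was nearly that of the aged heart. With at least 3 reads as the limit, 9 of 12 and 0 of 16 libraries remained.

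**Figure D1:**
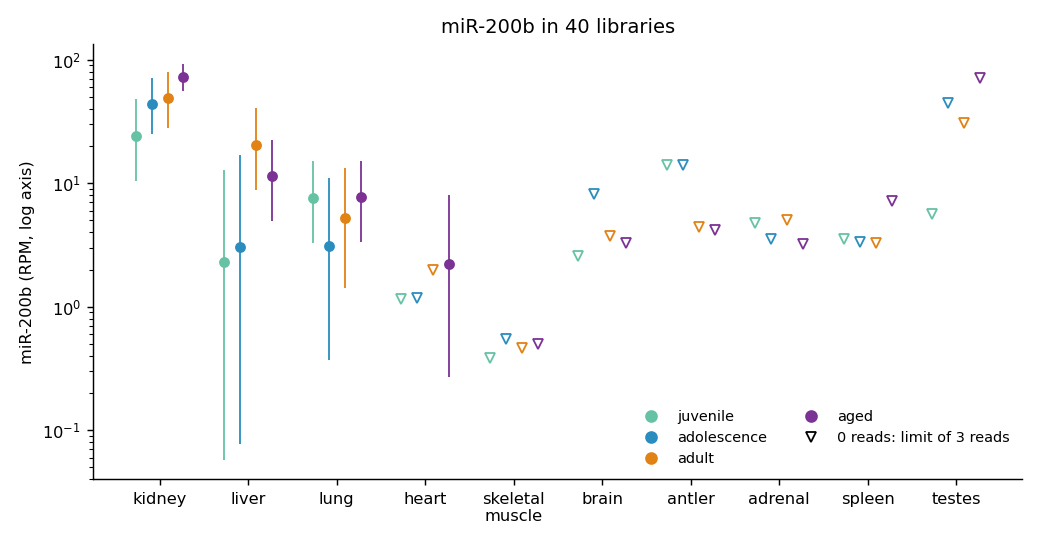
miR-200b in RPM (log axis) in each of the 40 libraries, by organ and stage. Points with bars are values with 95% exact Poisson intervals, and open triangles mark libraries with 0 reads at the level of 3 reads, so that the 4 kidney points from 24.3 to 72.4 RPM stand above all other points. The triangles of 3 testes libraries reach into the kidney range.

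How much a 0 says depends on depth. A count of 0 allows up to 3 reads, which over the 4 libraries of an organ came to 0.117 RPM in muscle, 0.923 in brain, 0.979 in spleen, 0.995 in adrenal, 1.64 in antler and 4.04 in testes. With its reads summed over stages kidney was at 54.2 RPM (44.2 to 65.8), liver at 9.69 (5.74 to 15.3) and lung at 6.27 (3.93 to 9.50), each with its 95% exact Poisson interval. This pooled kidney value was 465 times the muscle limit, 58.7 times the brain limit and 33.0 times the antler limit. Each limit was taken over the 4 libraries of an organ. Such ratios leave out the counting error of the value above the limit, so they are not lower bounds. A large part of the muscle reads was miR-1, the main miRNA of muscle fibres. With miR-1 reads taken out of all totals the muscle limit became 1.45 RPM and the kidney value was 37.7 times this limit.

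Lung and liver were nearer to these limits. On all miRNA reads, the pooled liver value was 10.5 times and the lung value 6.80 times the brain limit. Against the antler limit they were 5.90 and 3.82 times as high. In testes, where the 4 libraries together held 741783 reads, the lung rate would have given 4.65 reads and the kidney rate 40.2. The lung value was 1.55 times the testes limit, the lowest of these ratios. The lower end of the lung interval, 3.93 RPM, lay below that limit of 4.04 RPM. Antler used names that the other organs do not list, and whether this touched the reads of miR-200b there was not tested.

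For the comparison of organ groups the RPM were first scaled by TMM, which assumes that the bulk of the miRNAs does not differ between libraries. A limma model of log2(scaled RPM + 1) with terms for organ and stage tested 214 known miRNAs with at least 10 reads over the 40 libraries. Called were those with a Benjamini-Hochberg adjusted p below 0.01 and an absolute log2 difference above 1. In kidney, lung and liver miR-200b was higher than in muscle, heart, brain and antler by 2.88 on the log2 scale (95% interval 2.44 to 3.32, limma adjusted p = 5.40e-13). On that scale its mean was 3.02 in the former and 0.14 in the latter. Of all tested miRNAs 7.94% were called higher and 14.0% lower in this comparison (17 and 30 miRNAs), but on deposited RPM 90 were called higher and 14 lower. The median log2 difference of all tested miRNAs was -0.05 after TMM scaling and 0.82 on deposited RPM. Libraries at 0 have no spread on this scale, so these p values are too small, and the log2 difference depends on the 1 RPM that is added. Of the 144 miR-200b reads 142 lay in kidney, lung and liver, so it passed the filter of 10 reads through these organs. The organ groups were also chosen with earlier results of these data known. The p values of miR-200b between organs, here and below, are therefore descriptive and no independent test. The edgeR quasi-likelihood test on recovered reads gave an adjusted p of 1.96e-06 and DESeq2 gave 0.00561, with miR-200b higher in each.

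With whole organs as the units, the difference between the means of the 3 and of the 4 organs was 3.62 on the log2(RPM + 1) scale of the deposited values. An exact two-sided permutation test gave p = 0.0571, the smallest that its 35 arrangements allow, so this design cannot pass 0.05. All 3 organs of the first group lay above all 4 of the second.

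**Figure D2:**
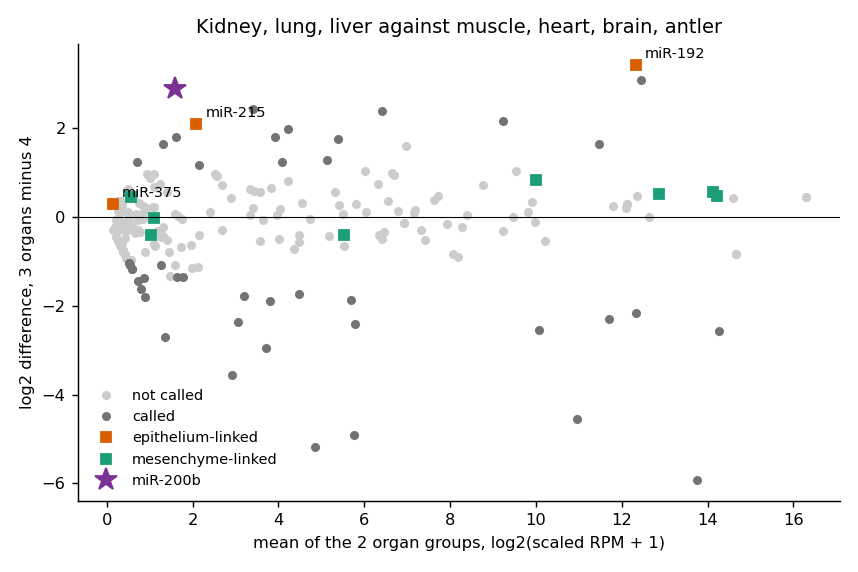
Log2 difference of each of the 214 tested miRNAs between the mean of kidney, lung and liver and the mean of muscle, heart, brain and antler (vertical axis) against its mean level in log2(scaled RPM + 1) (horizontal axis). The star marks miR-200b at 2.88, the squares mark the epithelium-linked and mesenchyme-linked lists, and darker points were called.

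Each organ was also set against the mean of the other 9. By limma miR-200b was higher in kidney by 3.92 (95% interval 3.31 to 4.52, adjusted p = 9.01e-12), in lung by 1.76 (1.16 to 2.37, adjusted p = 5.71e-05) and in liver by 1.19 (0.58 to 1.79, adjusted p = 0.00320) on the log2 scale. Among all tested miRNAs 7.01% were called higher in kidney, 3.74% in lung and 6.54% in liver. For each of the 6 organs at 0 reads the difference was -1.07 with the same unadjusted p (0.00113, limma), whatever its depth, since the other 9 organs alone set both. These values therefore carry no information on the single organ. After adjustment adrenal, antler, brain, skeletal muscle and testes counted as called lower, where 4.67%, 13.6%, 12.1%, 10.3% and 7.48% of all miRNAs were, and spleen (0.935%) did not. In heart the value was -0.45 with an adjusted p of 0.300 (limma, 3.27% called lower). The kidney difference kept its call in edgeR (adjusted p = 7.60e-09) and DESeq2 (adjusted p = 0.00509). The lung and liver differences were not called by DESeq2 (adjusted p = 0.273 and 0.292), and that of liver was lost without the adult liver (0.76, adjusted p = 0.0799, limma) or the aged liver (1.10, adjusted p = 0.0219, limma).

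Among the 3 organs kidney was highest. Over the reads of 4 stages it stood 8.64-fold above lung (95% exact interval 5.41 to 14.4) and 5.59-fold above liver (3.37 to 9.81). By limma the difference was 1.94 on the log2 scale to lung (95% interval 1.12 to 2.75, adjusted p = 9.12e-04) and 2.46 to liver (1.64 to 3.27, adjusted p = 3.02e-05), where 4.67% of tested miRNAs were called higher in kidney in each comparison. These calls depended on the tool. The adjusted p was 0.114 for lung and 0.0350 for liver with edgeR, and 0.773 and 0.570 with DESeq2. The call against lung was lost in limma without the adolescence (adjusted p = 0.0185) or the aged stage (adjusted p = 0.0111).

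Stage by stage, kidney over lung was 3.18-fold in the juvenile (95% exact interval 1.04 to 9.71), 14.2-fold in the adolescence (3.33 to 127), 9.32-fold in the adult (3.01 to 38.3) and 9.43-fold in the aged deer (4.50 to 22.8). Kidney over liver was 10.6-fold (1.43 to 472), 14.4-fold (2.23 to 603), 2.37-fold (0.957 to 6.39) and 6.32-fold (3.02 to 15.3) in the same order. Kidney was the higher organ in all 8 of these pairs of libraries, and the interval reached below 1 only for the adult liver.

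Liver and lung could not be ordered. Over 4 stages liver was 1.54-fold above lung with an interval of 0.781 to 3.02, and by limma liver minus lung was -0.52 (95% interval -1.34 to 0.29, adjusted p = 0.536), in a comparison that called 7.94% of all miRNAs. On deposited RPM without TMM scaling the sign turned to 0.22 (limma adjusted p = 0.822).

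By stage, the kidney level was higher at each later stage. The aged kidney was 2.98-fold above the juvenile (95% exact interval 1.42 to 7.21). The steps between neighbouring stages were 1.79-fold (0.725 to 4.84), 1.11-fold (0.522 to 2.38) and 1.49-fold (0.850 to 2.77), so none of them exceeded the sampling of reads. With stages paired, the adult and aged kidneys were 1.91-fold above the juvenile and adolescence kidneys (1.19 to 3.16). These intervals compare libraries of pooled RNA and not groups of deer.

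**Figure D3:**
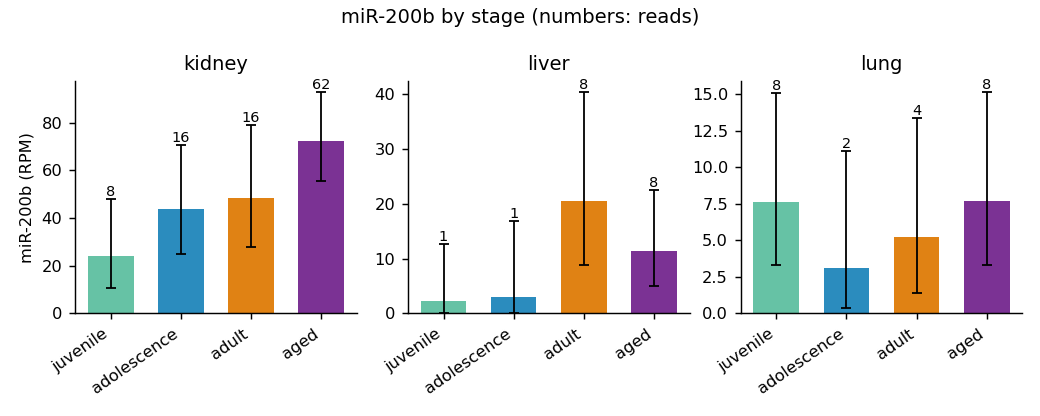
miR-200b in RPM by stage in kidney, liver and lung, each with its own vertical axis from 0. Bars are single libraries, error bars are 95% exact Poisson intervals and the numbers above are reads, so that the increase in kidney from 24.3 to 72.4 RPM rests on 8 to 62 reads and the liver values on 1 to 8.

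In liver the adult and aged libraries together were 5.64-fold above the 2 younger ones (95% exact interval 1.33 to 50.6), on 16 against 2 reads. In lung the same ratio was 1.13 (0.445 to 2.91), on 12 against 10 reads. On deposited RPM the 2 later stages thus had the higher point values in kidney and liver, and overlapped the earlier ones in lung. The 95% exact Poisson intervals of earlier and later libraries overlapped in liver, and in kidney except between the juvenile and the aged library. In kidney the intervals were 10.5 to 47.8 RPM in the juvenile and 55.5 to 92.8 in the aged library. Between these they were 24.9 to 70.8 RPM in the adolescence and 27.8 to 78.9 in the adult library. In liver they were 0.0767 to 16.9 RPM in the adolescence and 4.94 to 22.6 in the aged library. The kidney point values overlapped too once miR-192 reads were left out of the total (51.9 RPM in the adult against 58.0 in the adolescence). The reads of let-7b, which was higher in the 2 later kidneys, stayed in that total. With TMM scaling the kidney point values did not overlap (31.4 RPM in the adult against 15.4 in the adolescence).

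No difference by stage over the 3 organs together passed the test for miR-200b. With limma on the 12 libraries and organ in the model, the adult and aged minus the juvenile and adolescence libraries was 1.20 on the log2 scale for miR-200b (95% interval 0.27 to 2.14, adjusted p = 0.173). The F test of the 4 stages gave an adjusted p of 0.253. In these fits limma called 0 of 162 miRNAs (0%), with 32 and 28 at an unadjusted p below 0.05. There edgeR called 0 and 0, and DESeq2 called 1 and 7.

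Other abundant miRNAs moved with stage in kidney, and RPM is a share of the total. The level of miR-192, a miRNA of gut, liver and kidney, was 270874 RPM in the juvenile, 248624 in the adolescence, 63924 in the adult and 67465 in the aged kidney. That of let-7b went the other way, at 55026.5, 70919, 209045 and 227420 RPM in the same order. For miR-30c it was 101763, 109632, 96775 and 84402 RPM. With the miR-192 reads left out of the total, miR-200b was at 33.3, 58.0, 51.9 and 77.6 RPM at the 4 stages. With TMM scaling it was at 8.82, 15.4, 31.4 and 47.5. The juvenile kidney was lowest and the aged highest on each of the 3 scales. The adult kidney was above the adolescence one except with miR-192 reads left out. The part of these other miRNAs in the stage values was not tested.

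**Figure D4:**
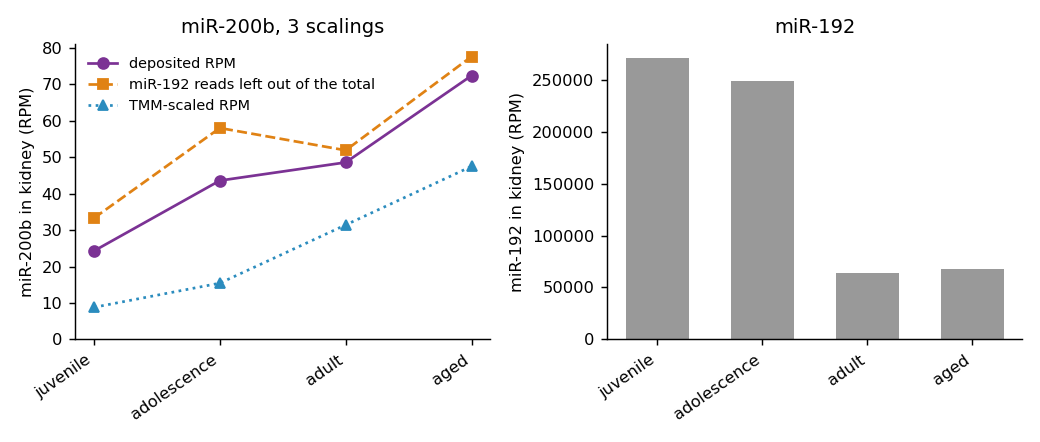
Left, miR-200b in kidney in RPM at the 4 stages on deposited RPM, on RPM with miR-192 reads left out of the total and on TMM-scaled RPM. Right, miR-192 in kidney in RPM, which is 270874 in the juvenile and 67465 in the aged library.

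The second listed member, miR-429, is encoded beside miR-200b in mammals. It had 1 read in the adult kidney (3.04 RPM, 95% exact Poisson interval 0.0769 to 16.9) and 1 in the aged kidney (1.17 RPM, 0.0296 to 6.51), and none in the other 38 libraries. With 2 reads it was below the minimum for testing. Both libraries also held the 2 highest miR-200b levels of the series.

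A list of 16 miRNAs linked to epithelia was read beside the family. Of these 10 were listed in any library, and only miR-192, miR-215 and miR-375 had the 10 reads needed for testing. Of the 3, miR-192 and miR-215 were called higher in kidney, lung and liver than in the 4 other organs, and the median log2 difference of the 3 was 2.10. Of all 214 tested miRNAs 7.94% were called higher, and their median was -0.05. The difference was 3.43 for miR-192 (95% interval 2.56 to 4.31, limma adjusted p = 5.12e-08) and 2.10 for miR-215 (1.19 to 3.02, limma adjusted p = 3.21e-04). Their levels lay in kidney and liver and not in lung, since miR-192 had a mean of 162722 RPM in kidney, 162672 in liver and 1529 in lung, and miR-215 one of 118.8, 41.0 and 1.01 RPM. The endocrine miRNA miR-375 had its highest mean in adrenal, 4.47 RPM. The other 7 listed members had 1 to 7 reads each. The renal and gut miRNA miR-194 had 3 of its 6 reads in kidney, miR-204 had its 1 read in kidney and its paralogue miR-211 its 1 read in liver. Other members lay elsewhere, since miR-205 of stratified epithelia had its 2 reads in antler and miR-449a of multiciliated cells had 6 of its 7 reads in the adolescence testes and 1 in lung. The 2 reads of miR-449c were in antler and lung and those of miR-31 in testes and liver. The skin and sensory epithelial miRNAs miR-203, miR-182, miR-183 and miR-96 and the miRNAs miR-34b and miR-34c of multiciliated cells had no row in the tables used here.

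Of 8 miRNAs linked to mesenchyme and smooth muscle all were tested and 0 were called in either direction, with a median log2 difference of 0.46 and with 4 higher and 0 lower at an unadjusted p below 0.05. Of all 214 tested miRNAs 36 were higher and 51 lower at that unadjusted p, and 17 and 30 were called. The smooth muscle miRNA miR-145 differed by 0.57 (95% interval 0.22 to 0.92, limma adjusted p = 0.00956), which is below the limit on size. The mesenchymal miR-199a-3p differed by 0.47 (0.08 to 0.87, limma adjusted p = 0.0576). Its highest organ mean was nevertheless in antler, at 253112 RPM, against 55685 in liver, 44177 in kidney and 27415 in lung. Heart (5567 RPM), skeletal muscle (1522) and brain (1191) were lower. Antler was also the highest organ for miR-199a-5p and miR-214. DESeq2 called 11 of all tested miRNAs higher in this comparison and edgeR 13, against 17 by limma.

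The likeness of other miRNAs to miR-200b was measured by Pearson's r over the 40 libraries on log2(RPM + 1). The highest r were those of miR-196b (0.637), miR-192 (0.637), miR-30a-5p (0.582), miR-30f (0.579) and miR-215 (0.540). The points share organs, deer and library totals, and 27 of them are at 0 for miR-200b, so r is given as a description. All 5 had their highest organ mean in kidney, which for miR-192 was level with liver, at 3411 RPM for miR-196b, 162722 for miR-192, 1065 for miR-30a-5p, 59352 for miR-30f and 118.8 for miR-215. Without the kidney libraries r was 0.04 for miR-196b, 0.44 for miR-192, 0.41 for miR-30a-5p, 0.47 for miR-30f and 0.27 for miR-215. The Hox cluster miRNA miR-196b was thus alike through kidney alone, with 8.88 RPM in liver and 7.61 in lung, where miR-30f stood at 26085 and 20019 RPM.

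**Figure D5:**
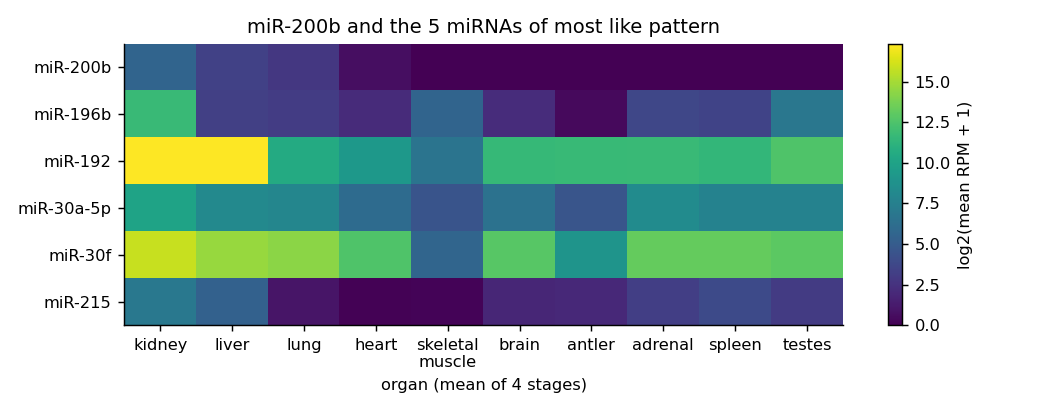
Mean level over 4 stages in log2(mean RPM + 1) of miR-200b and of the 5 known miRNAs with the highest Pearson's r with it, in 10 organs. Kidney is the highest organ for all 6, and for miR-200b 6 organs are at 0.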

How the data were processed

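Small RNA of 40 libraries was sequenced on an Illumina HiSeq instrument. Per the labels a NEBNext small RNA kit was used, whereas the methods of the study name a TruSeq kit. The authors trimmed adapters, dropped reads of unfit length and those of other RNA classes, matched the rest to miRBase and predicted further miRNAs with miRDeep. The processing notes also name CASAVA, bcl2fastq 1.8.4 and Bowtie. The authors deposited RPM values, under a header of tpm, without division by length. Divided by the value of 1 read, all 7982 values came out whole within 0.01 (farthest 4.10e-05). Libraries were grouped by organ and stage from the labels.

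Predicted miRNAs without a miRBase name were left out of the fits. The fits used TMM (edgeR 4.0.16) and limma 3.58.1 with trend in R 4.3.3, on miRNAs with at least 10 reads over the libraries of the fit. Of the 214 tested names 12 are listed in antler alone. Intervals are exact 95% Poisson or conditional binomial intervals (scipy 1.17.1), and a 0 was given a limit of 3 reads. Alternatives were deposited RPM, edgeR and DESeq2 1.42.0 on recovered reads, other pseudocounts and filters, and left-out stages, organs and libraries. The limma fit of the organ groups was run on simulated counts. There each miRNA had the same base rate in all organs, and some had set changes in kidney, lung and liver. That setting lacks the organ differences of these data, so it does not bear on the p values of miR-200b. The stage term pairs organs of the same deer, as the methods state. Deviations from the organ means correlated with a median r of 0.08 over 180 pairs of libraries of 1 stage and -0.03 over 540 pairs of different stages. The named miRNAs are the family, the members of the lists and the 5 of most like pattern. Members, lists and organ groups were chosen with earlier results of these data known.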

Additional observations from a re-analysis of the deposited data

Results flagged for a closer look

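The aged heart stood apart from the other 3 hearts for miR-200b, at 2.21 RPM against 0. The gap of a library to its nearest neighbour was set against the range of its organ, in 25 sets of 4 libraries. With 3 libraries at 0 any read in the other one passes by construction, as here, so the usual chance rate of about 1 in 20 does not apply. In the 4 hearts miR-192 was at 488, 388, 1264 and 288 RPM from juvenile to aged, lowest in the aged heart, and miR-215 had no read there. The main heart miRNA miR-1 was at 577640, 814910, 316406 and 151290 RPM in the same order, also lowest in the aged heart. The RPM of miR-133a was highest there, at 252493. As RPM is a share of the total, a lower miR-1 by itself raises the RPM of other miRNAs. Its part in the miR-133a values was not tested. The part of other cells in the 2 reads was not tested. For miR-215 the juvenile brain (10.3 RPM), the juvenile heart (0.387 RPM, on 1 read) and the aged spleen (45.5 RPM) also stood apart. In brain and heart the other 3 libraries were at 0 as well, whereas the other spleens were at 1.10 to 8.23 RPM.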

How the results depend on the processing

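The higher level of miR-200b in kidney, lung and liver kept its direction in all 54 alternatives. With 142 reads in these organs against 2 in muscle, heart, brain and antler, the direction could hardly turn, so this is no test of it. Its log2 difference fell below the limit of 1 with a pseudocount of 10 RPM (0.89). That pseudocount also ended the calls of lung (0.33) and liver (0.19) against the other 9 organs, as did DESeq2 (2.74 and 2.34), and liver was not called without the testes libraries (1.01). The kidney calls against lung and liver were lost with edgeR (2.05 and 2.65) and DESeq2 (2.14 and 2.50), and that against lung without the names of antler alone (1.505), an alternative added after the data were seen. Liver minus lung turned to 0.22 on deposited RPM. The cause of these changes was not tested.

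Called higher in the 3 organs were 90 miRNAs on deposited RPM, 11 with DESeq2, 8 with a pseudocount of 10 and 28 without antler, against 17. Called lower were 14 on deposited RPM, 17 with edgeR, 16 with a pseudocount of 10, 18 without the names of antler alone and 19 without antler, against 30. Organs in which miR-200b was called either way against the rest numbered 8 by limma, 3 with edgeR, 1 with DESeq2, 1 with a pseudocount of 10 and 5 without the names of antler alone. With 3 reads as the limit 0 of 16 libraries listed it, and without miR-1 the muscle limit was 1.45 RPM.

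Leaving out a stage or a library gave log2 differences of 2.72 to 3.19 for the 3 organs against the 4, 3.58 to 4.23 for kidney, 1.58 to 1.99 for lung and 0.76 to 1.69 for liver against the other 9. It gave 1.43 to 2.28 for kidney against lung, 2.07 to 2.87 for kidney against liver, -0.94 to -0.21 for liver against lung, 14 to 24 higher and 22 to 32 lower calls, and 2 to 9 organs. That count was 3 without the adolescence, 2 without the adult and 2 without the aged stage. Without the adult or the aged stage the liver difference was 0.93 and 0.95 and lost its call. For stage it gave F values of 1.49 to 4.04 and log2 differences of 0.93 to 1.35.

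Without the replicate block, that is with no stage term, the difference of the 3 organs to the 4 was 2.88 (adjusted p = 1.15e-12, limma), and no call of miR-200b in kidney, lung and liver changed, while the count of organs called went from 8 to 6. A filter of 10 reads in 4 or more libraries leaves out miR-200b, as 3 libraries reach 10 reads. The lung and liver values rest on 1 to 8 reads a library, and in testes the limit of 0 reads was 4.04 RPM over the 4 libraries.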
